A study of Homo sapiens with 9 samples.

Results

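The 10 genes described here make, reduce, use and break down glutathione. They are the synthesis genes GCLC, GCLM and GSS, the glutathione-using or glutathione-reducing genes GSR, GLRX and GLO1, and the breakdown genes CHAC1, CHAC2, GGCT and OPLAH. They were chosen by name for their place in the pathway and found by gene symbol among the 58735 genes of the deposited tables, and all 10 passed the filter on low counts. The RNA came from MDA-MB-231, a long-established human cell line of triple-negative breast cancer. The 9 libraries form 3 groups of 3, namely cells given the vehicle DMSO (vehicle), cells that survived rising concentrations of erastin (erastin-R) and cells that survived rising concentrations of RSL3 (RSL3-R). Erastin blocks the cystine-glutamate exchanger that feeds glutathione synthesis, whereas RSL3 blocks GPX4, the peroxidase that spends glutathione to reduce lipid peroxides, and both kill cells by ferroptosis. All libraries come from 1 line, and both survivor groups, called resistant here for short, come from a selection. Their resistance was not measured in these libraries. The treatment labels say only that the cells were treated with erastin or RSL3, and not whether drug was present at harvest. A response to drug still present and a lasting trait of the survivors therefore cannot be told apart. The labels also give neither the doses used nor whether replicates were separate cultures. The p values therefore measure the spread between these libraries, which may be technical.

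Glutathione is made in the cytosol from glutamate, cysteine and glycine. Glutamate-cysteine ligase, a catalytic subunit (GCLC) held together with a modifier subunit (GCLM), catalyzes the rate-limiting step, and glutathione synthetase (GSS) adds glycine. Glutathione reductase (GSR) regenerates the reduced form with NADPH, the glutaredoxin GLRX uses it to remove glutathione from proteins, and the glyoxalase GLO1 uses it to clear methylglyoxal. The γ-glutamylcyclotransferases CHAC1 and CHAC2 cleave glutathione inside the cell, GGCT releases oxoproline from γ-glutamyl amino acids, and the oxoprolinase OPLAH returns oxoproline to glutamate. GCLC and GCLM are known targets of the transcription factor NRF2, and CHAC1 is a known target of ATF4, the factor of the integrated stress response.

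The promoters of GCLM, GCLC and CHAC1 are shown because these genes had the largest differences among the synthesis and breakdown genes that were higher in a resistant group. RefSeq promoter windows (GRCh38.p14) run from 250 bases before the start site to 50 bases after it, and 6 of the 10 genes had one (GCLC, GCLM, CHAC1, CHAC2, GLRX and GLO1). They were searched on both strands for TGACNNNGC, the core of the antioxidant response element of NRF2, for TGATGNAA, the element through which ATF4 acts with C/EBP factors, and for TGACGT, the core of the cyclic AMP response element, which can overlap TGACNNNGC. The GCLM window held TGACNNNGC on the opposite strand, with its first base in the reading direction 34 bases before the start site. The CHAC1 window held TGATGNAA on the opposite strand, starting 209 bases before the start site. The windows of GCLC, CHAC2, GLRX and GLO1 held none of these letters, and TGACGT was in none of the 6. Of 35116 promoter windows of the same length, 13.3% held TGACNNNGC, 3.62% held TGATGNAA and 7.98% held TGACGT, so that a match is a description of the letters and not evidence of a bound site. The stretch of GCLM printed here is chr1:93909456-93909680 on the minus strand, upstream of the gene except for its last base, which GENCODE 29 places in the 5′ untranslated region of a longer transcript. The stretch of GCLC is chr6:53545130-53545351 on the minus strand and lies in an intron of transcripts that start farther upstream. The 30 bases of CHAC1 are chr15:40953251-40953280 on the plus strand, inside the 5′ untranslated region of transcripts that start upstream of the RefSeq start site. Capitals mark the matches, and each sequence is written 5′ to 3′ on the strand of its gene.
GCLM: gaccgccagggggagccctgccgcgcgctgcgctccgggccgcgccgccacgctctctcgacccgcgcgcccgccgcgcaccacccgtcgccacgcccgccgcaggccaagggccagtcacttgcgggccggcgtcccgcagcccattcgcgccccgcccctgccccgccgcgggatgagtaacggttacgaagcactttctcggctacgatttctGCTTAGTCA
GCLC: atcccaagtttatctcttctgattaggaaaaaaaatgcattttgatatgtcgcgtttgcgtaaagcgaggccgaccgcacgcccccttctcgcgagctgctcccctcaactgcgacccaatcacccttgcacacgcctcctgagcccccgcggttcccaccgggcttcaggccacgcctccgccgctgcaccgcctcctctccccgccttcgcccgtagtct
CHAC1: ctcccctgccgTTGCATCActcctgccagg

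Total counts ranged from 15405102 to 17273464 per library, and edgeR tested 16188 genes. Erastin-R replicate 1 stood apart from the other libraries of its group: its counts differed from theirs by 21.8 and 22.5 times the sampling variance (chi-square per degree of freedom), against 2.39 to 5.04 for every other pair within a group. Values without it are therefore given where a call or a sign changed for 1 of the 10 genes, and for other genes only in part. All 6 genes expected in this mesenchymal-like line (VIM, CD44, AXL, CAV1, ZEB1 and MSN) were present in every library at 14.7 FPKM or more, the deposited level scaled by gene length and library size. The caveolin gene CAV1 among them fell by 1.14 (erastin-R) and 0.86 (RSL3-R) on the log2 scale. CD44 was at -0.15 and -0.43, whereas AXL rose by 0.58 and 0.40, all past the threshold. The erastin-R value of CD44 passed it in 6 of 16 alternative settings. VIM, ZEB1 and MSN did not pass it in either comparison with vehicle, although the RSL3-R value of MSN did in 10 of 16 alternative settings. The 10 markers of other cell types summed to 3.33 to 3.87 FPKM in vehicle, 2.16 to 3.1 in erastin-R and 3.49 to 4.64 in RSL3-R libraries. Among the defining markers of other cells, ALB, COL3A1, KRT20, PGR and ESR1 had 12 counts or fewer in every library, whereas PECAM1 had 154 to 177 counts in vehicle, 20 to 36 in erastin-R and 199 to 222 in RSL3-R libraries. CDH1 was at 53 to 59 counts and PTPRC at 19 to 24 in RSL3-R libraries, above the vehicle libraries (14 to 27 and 4 to 11). The luminal markers GATA3 and FOXA1 did not pass the threshold in RSL3-R against vehicle (log2 fold changes of -0.39 and -0.42). The part of these differences in the results below was not tested.

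The question of the comparisons with vehicle was how the pathway differed in cells that had survived each inducer. In erastin-R cells the rate-limiting synthesis genes GCLC and GCLM rose 2.82-fold and 2.55-fold and CHAC1 rose 4.72-fold, while CHAC2 fell. In RSL3-R cells GCLC showed no rise past the threshold, GCLM was lower than in vehicle, and CHAC1 rose 14.3-fold. Of the 10 genes, 6 rose and 1 fell in erastin-R cells at an edgeR adjusted p below 0.05, where 27.1% of all genes tested rose and 26.8% fell. In RSL3-R cells 3 rose and 4 fell, where 23.8% of all genes rose and 24.9% fell. Counting only log2 fold changes of 1 or more in size, 3 genes rose and 1 fell in erastin-R cells (6.70% and 6.66% of all genes), and 1 rose and 1 fell in RSL3-R cells (6.02% and 4.08%). Both comparisons share the vehicle libraries and are therefore not independent of each other. In bulk RNA, fewer cells that express a gene and less RNA of it per cell cannot be told apart.

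**Figure D1:**
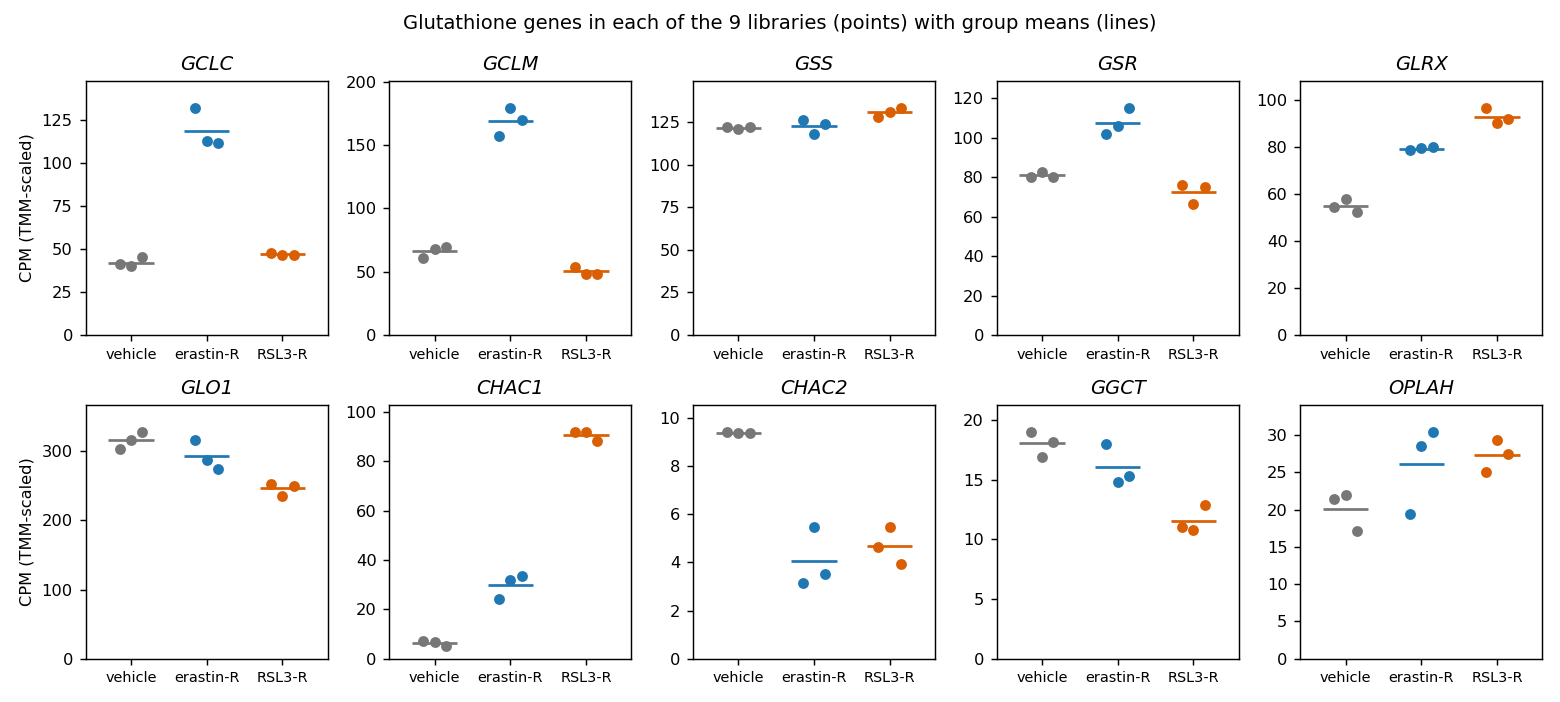
Each panel plots the level of 1 gene (CPM, counts scaled to library size with TMM factors, axes from 0) in the 3 vehicle, 3 erastin-R and 3 RSL3-R libraries as points, with the group mean as a line. GCLC and GCLM stand highest in erastin-R, CHAC1 rises from 6.32 to 29.9 and 90.7 CPM across the group means, and CHAC2 is lower in both resistant groups.

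GCLC (ENSG00000001084, chr6:53497341-53616970, minus strand) encodes the catalytic subunit. Its level was 41.1, 40.2 and 45.2 CPM in the vehicle libraries, 132, 113 and 112 CPM in the erastin-R libraries and 47.7, 46.8 and 46.4 CPM in the RSL3-R libraries. The erastin-R libraries lay far above both other groups, and the RSL3-R libraries lay just above the highest vehicle library. Against vehicle, the log2 fold change of erastin-R cells was 1.49 ± 0.08 (SE, n = 3 and 3, edgeR adjusted p = 5.60e-09) and that of RSL3-R cells 0.16 ± 0.08 (edgeR adjusted p = 0.125), with a 95% interval of -0.02 to 0.33 for the latter. Without erastin-R replicate 1, which held the highest GCLC level, these values were 1.41 and 0.15, and the RSL3-R value then passed the threshold (edgeR adjusted p = 0.0348). Exons of GCLC share 6.12% of their bases with AL033397.1 on the same strand, a gene with 2 to 25 counts per library.

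GCLM (ENSG00000023909, chr1:93885205-93909456, minus strand) encodes the modifier subunit, which raises the affinity of the ligase for glutamate and relieves its feedback inhibition by glutathione. It was at 61.2, 67.8 and 69.5 CPM in vehicle, 157, 179 and 170 CPM in erastin-R and 54, 48.1 and 48.5 CPM in RSL3-R libraries. No library of a group fell within the range of another, and the RSL3-R libraries were the lowest. Erastin-R cells differed from vehicle by a log2 fold change of 1.35 ± 0.07 (edgeR adjusted p = 8.16e-09), RSL3-R cells by -0.40 ± 0.08 (edgeR adjusted p = 6.96e-04). GCLM was thus above vehicle in erastin-R cells and below it in RSL3-R cells.

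GSS (ENSG00000100983, chr20:34928433-34956027, minus strand), the glutathione synthetase, differed little between the groups. Its level was 122, 121 and 122 CPM in vehicle, 126, 118 and 124 CPM in erastin-R and 128, 131 and 133 CPM in RSL3-R libraries. Vehicle and erastin-R libraries overlapped, whereas the RSL3-R libraries lay slightly above both. The 95% interval of the log2 fold change was -0.11 to 0.13 in erastin-R (edgeR adjusted p = 0.853) and -0.01 to 0.22 in RSL3-R cells (edgeR adjusted p = 0.127). The erastin-R value was 0.01, and -0.01 without erastin-R replicate 1. The RSL3-R value of 0.11 passed the threshold in 4 of 16 alternative settings. A change of GSS as large as that of GCLC or GCLM in erastin-R cells lies outside these intervals.

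**Figure D2:**
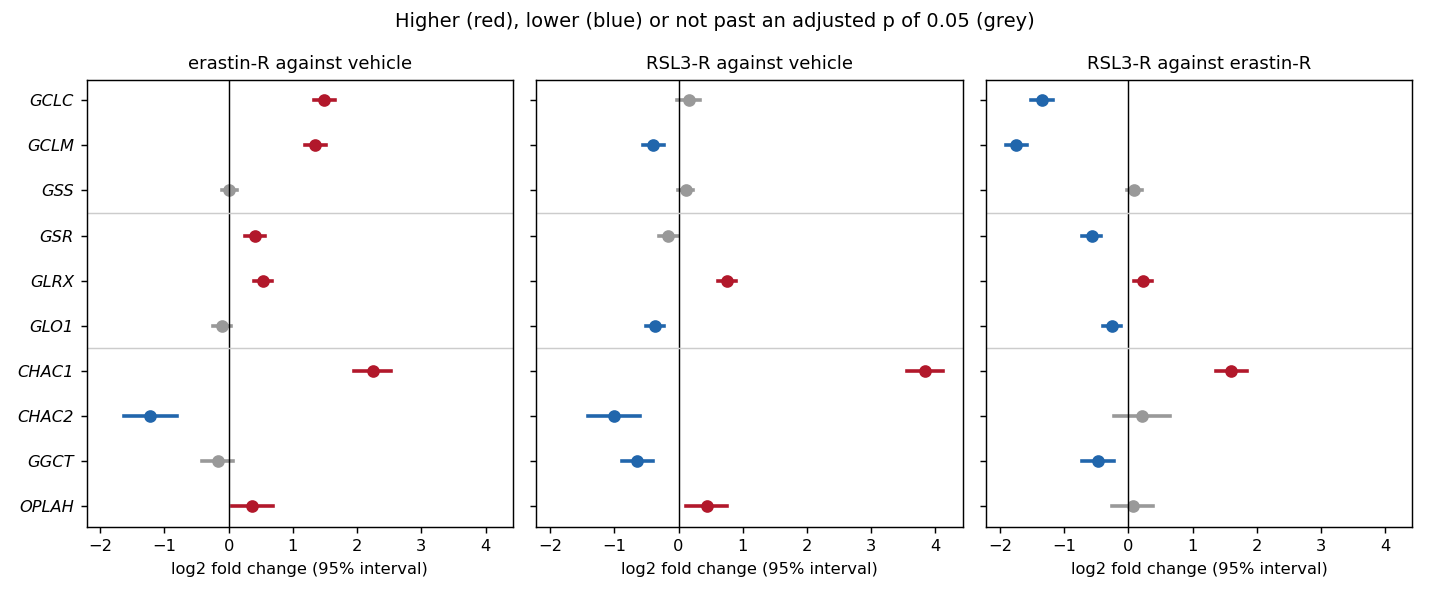
Log2 fold changes of the 10 genes (points) with 95% intervals (bars) for erastin-R against vehicle, RSL3-R against vehicle and RSL3-R against erastin-R, each from 3 against 3 libraries, with grey lines separating synthesis, reduction and glyoxalase, and breakdown genes. GCLC and GCLM lie at 1.49 and 1.35 in erastin-R against vehicle and at -1.34 and -1.75 in RSL3-R against erastin-R, and CHAC1 lies to the right of 0 in all 3 panels.

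Among the genes that reduce or use glutathione, GLRX rose in both resistant groups and GSR in erastin-R cells, while GLO1 fell in RSL3-R cells. GSR (ENSG00000104687, chr8:30678061-30727999, minus strand) was at 80.1, 82.9 and 80 CPM in vehicle, 102, 106 and 115 CPM in erastin-R and 75.9, 66.5 and 75 CPM in RSL3-R libraries. The groups did not overlap. The erastin-R cells were higher than vehicle by 0.41 ± 0.07 on the log2 scale (edgeR adjusted p = 2.03e-04), the RSL3-R cells were at -0.16 ± 0.07 (edgeR adjusted p = 0.0728), and the latter passed the threshold without erastin-R replicate 1 (edgeR adjusted p = 0.0151).

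GLRX (ENSG00000173221, chr5:95751319-95823005, minus strand) encodes the cytosolic glutaredoxin. It was at 54.5, 57.9 and 52.2 CPM in vehicle, 78.4, 79.5 and 79.7 CPM in erastin-R and 96.3, 89.9 and 91.9 CPM in RSL3-R libraries. The groups were fully separated, with vehicle lowest and RSL3-R highest. The log2 fold changes against vehicle were 0.53 ± 0.06 (edgeR adjusted p = 1.01e-05) and 0.76 ± 0.06 (edgeR adjusted p = 3.80e-07).

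GLO1 (ENSG00000124767, chr6:38675925-38703141, minus strand) had the highest level per length of the 10 genes in every library. It was at 304, 317 and 328 CPM in vehicle, 317, 288 and 274 CPM in erastin-R and 253, 236 and 250 CPM in RSL3-R libraries. The RSL3-R libraries lay below all others, and erastin-R and vehicle overlapped through erastin-R replicate 1. Against vehicle, RSL3-R cells were at a log2 fold change of -0.36 ± 0.06 (edgeR adjusted p = 3.53e-04) and erastin-R cells at -0.11 ± 0.06 (edgeR adjusted p = 0.161). Without erastin-R replicate 1 the latter was -0.17 and passed the threshold (edgeR adjusted p = 0.00259).

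The breakdown genes did not move together. CHAC1 rose in both resistant groups, CHAC2 fell in both, GGCT fell in RSL3-R cells, and OPLAH rose by a small amount. CHAC1 (ENSG00000128965, chr15:40952962-40956519, plus strand) encodes the stress-induced enzyme that cleaves glutathione. It was at 7.03, 6.61 and 5.3 CPM in vehicle, 24.1, 32.1 and 33.4 CPM in erastin-R and 91.9, 91.9 and 88.2 CPM in RSL3-R libraries, from 86 to 118, 405 to 550 and 1426 to 1509 counts. The groups were far apart, and the lowest erastin-R value was that of replicate 1. Erastin-R cells exceeded vehicle by 2.24 ± 0.13 on the log2 scale (95% interval 1.95 to 2.53, edgeR adjusted p = 1.65e-08), RSL3-R cells by 3.84 ± 0.13 (95% interval 3.56 to 4.12, edgeR adjusted p = 9.09e-11).

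CHAC2 (ENSG00000143942, chr2:53767792-53775196, plus strand), the constitutive relative of CHAC1 that degrades glutathione slowly, went the other way. It was at 9.42, 9.39 and 9.38 CPM in vehicle, 3.16, 5.47 and 3.53 CPM in erastin-R and 4.64, 5.47 and 3.92 CPM in RSL3-R libraries. Every resistant library was below every vehicle library, and the resistant groups overlapped. Relative to vehicle the log2 fold change was -1.22 ± 0.19 (erastin-R, edgeR adjusted p = 1.15e-04) and -1.01 ± 0.19 (RSL3-R, edgeR adjusted p = 5.52e-04), on 53 to 88 counts per resistant library. The deposited FPKM of CHAC1 was 0.363 to 0.479 times that of CHAC2 in vehicle, 3.77 to 6.09 times in erastin-R and 10.8 to 14.5 times in RSL3-R libraries, so that their order was inverted.

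GGCT (ENSG00000006625, chr7:30496621-30504844, minus strand) was at 19, 16.9 and 18.2 CPM in vehicle, 18, 14.8 and 15.3 CPM in erastin-R and 11, 10.8 and 12.9 CPM in RSL3-R libraries. The RSL3-R libraries were below all others, whereas vehicle and erastin-R overlapped. The RSL3-R level of GGCT differed from vehicle by -0.64 ± 0.12 on the log2 scale (edgeR adjusted p = 4.15e-04), and the erastin-R value was -0.17 ± 0.11 (edgeR adjusted p = 0.224). Of its exon bases, 27.6% also belong to AC005154.5 on the same strand, which had at most 2 counts in a library, so that how the counting divided these reads limits its level.

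OPLAH (ENSG00000178814, chr8:144051266-144063965, minus strand) was at 21.4, 21.9 and 17.1 CPM in vehicle, 19.4, 28.5 and 30.4 CPM in erastin-R and 25.1, 29.3 and 27.5 CPM in RSL3-R libraries. Erastin-R replicate 1 lay within the vehicle range, whereas the RSL3-R libraries lay above it. OPLAH exceeded vehicle by 0.44 ± 0.15 on the log2 scale in RSL3-R cells (edgeR adjusted p = 0.0255) and by 0.37 ± 0.15 in erastin-R cells (edgeR adjusted p = 0.0495). The erastin-R call was borderline, since it was 0.55 without erastin-R replicate 1 (edgeR adjusted p = 3.60e-05) and was lost when any other library was left out, with log2 fold changes of 0.25 to 0.43. The RSL3-R call was lost without vehicle replicate 3 (0.33, edgeR adjusted p = 0.12) and without RSL3-R replicate 2 (0.38, edgeR adjusted p = 0.0929).

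The direct comparison of RSL3-R with erastin-R cells asked where the survivors of the inducers differed. RSL3-R cells had 2 of the 10 at a higher and 5 at a lower level, where 22.3% of all genes tested were higher and 26.9% lower. Counting only log2 fold changes of 1 or more in size, CHAC1 was higher (6.86% of all genes) and GCLC and GCLM were lower (3.48% of all genes). The log2 differences were -1.34 ± 0.08 for GCLC (edgeR adjusted p = 2.04e-08), -1.75 ± 0.08 for GCLM (edgeR adjusted p = 1.95e-09) and 1.60 ± 0.11 for CHAC1 (edgeR adjusted p = 9.25e-08), which correspond to 2.53-fold and 3.36-fold lower and 3.03-fold higher levels in RSL3-R cells. The other calls were smaller. GSR was lower by a log2 difference of -0.57, GGCT by -0.47 and GLO1 by -0.25, and GLRX was higher by 0.23. GSS, CHAC2 and OPLAH did not pass the threshold, with 95% intervals of -0.03 to 0.21, -0.23 to 0.65 and -0.25 to 0.38. GSS passed it in 3 of 16 alternative settings (0.13 with a mean FPKM of at least 1, 0.19 with upper-quartile scaling and 0.18 with quantile normalization), and OPLAH was at -0.11 without erastin-R replicate 1.

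The 3 synthesis genes were contrasted with the 4 breakdown genes as groups. The mean log2 fold change of synthesis minus that of breakdown was 0.65 for erastin-R against vehicle, -0.70 for RSL3-R against vehicle and -1.35 for RSL3-R against erastin-R. This difference is a description without a test, and its sign rests on CHAC1 only for RSL3-R against vehicle. With CHAC1 left out the difference was 1.29 (erastin-R) and 0.36 (RSL3-R) against vehicle, so that the sign of the latter was reversed. Between the resistant groups it was then -0.93. Medians over genes in place of means also reversed the sign for RSL3-R against vehicle. Per library, synthesis minus breakdown (mean log2 CPM) was 2.38 to 2.69 in vehicle, 3.0 to 3.41 in erastin-R and 1.73 to 1.88 in RSL3-R libraries, with no overlap between groups.

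Levels can be compared between genes only per length, for which the deposited FPKM was used. The order in vehicle cells was GLO1 (133 ± 5.28 FPKM, SD, n = 3), GSR (21.3 ± 0.423), GSS (19.5 ± 0.109), GCLM (12.1 ± 0.818), GGCT (11.2 ± 0.676), GLRX (8.34 ± 0.418), CHAC2 (7.04 ± 0.0115), GCLC (4.83 ± 0.311), OPLAH (4.48 ± 0.574) and CHAC1 (3.04 ± 0.428). The libraries of the neighbors GCLM and GGCT overlapped, as did those of GCLC and OPLAH, and the other neighbors did not. CHAC1, the lowest of the 10 in vehicle, reached 14.3 ± 2.47 FPKM in erastin-R and 43.7 ± 0.943 FPKM in RSL3-R cells, where it was second to GLO1 (104 ± 4.03 FPKM). The level of GCLM was above that of GCLC in every library, by 2.37 to 2.69 times in vehicle, 1.89 to 2.53 times in erastin-R and 1.64 to 1.80 times in RSL3-R libraries. The ratio in RSL3-R libraries lay below that of every other library, and those of vehicle and erastin-R overlapped.

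Summed over genes, the synthesis level was 35.4 to 37.5 FPKM in vehicle, 63.4 to 64.2 FPKM in erastin-R and 35.2 to 35.9 FPKM in RSL3-R libraries. The summed breakdown level was 24.7 to 26.9 FPKM in vehicle, 29.2 to 35 FPKM in erastin-R and 59.8 to 61.5 FPKM in RSL3-R libraries. Synthesis transcripts thus exceeded breakdown transcripts 1.31 to 1.52 times in vehicle and 1.82 to 2.17 times in erastin-R libraries, but were 0.573 to 0.597 times as high in RSL3-R libraries. CHAC1 made up 10.3 to 12.5% of the summed breakdown level in vehicle, 39.4 to 46% in erastin-R and 71.3 to 73.6% in RSL3-R libraries. These are sums of RNA levels of enzymes with different activities, and neither glutathione nor protein was measured in these files.

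**Figure D3:**
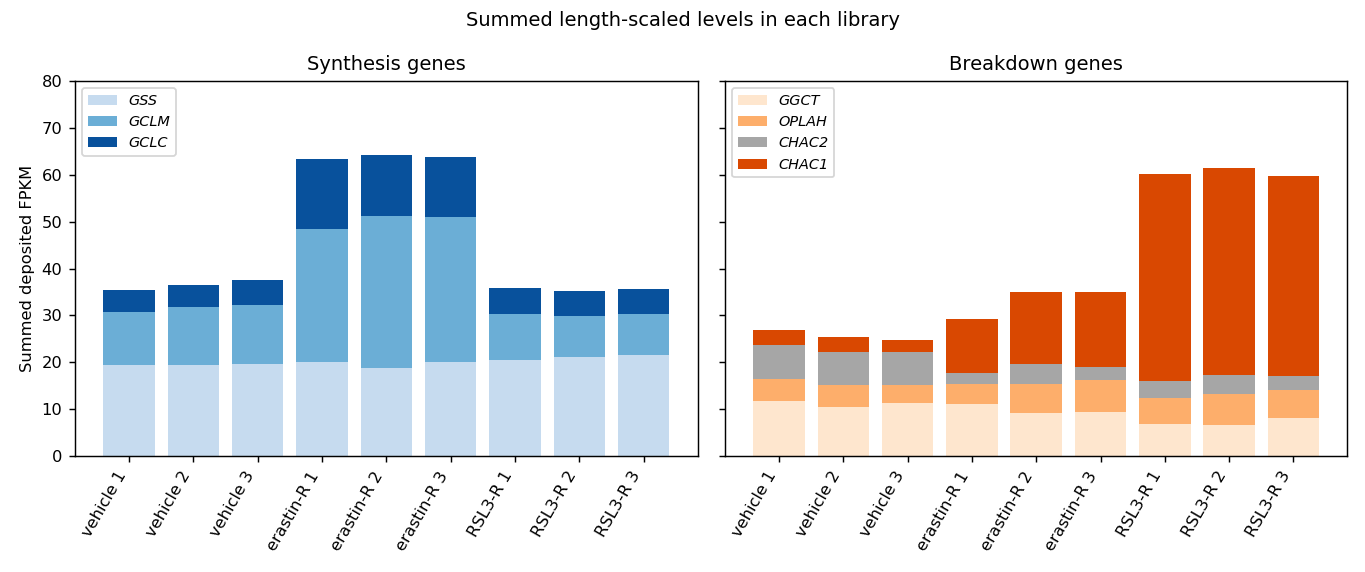
Stacked bars give the deposited FPKM of the synthesis genes (left) and breakdown genes (right) in each of the 9 libraries, on 1 shared axis from 0. GSS is level across the libraries, GCLC and GCLM make the erastin-R bars taller (63.4 to 64.2 FPKM in all), and CHAC1 makes the RSL3-R breakdown bars taller (59.8 to 61.5 FPKM in all).

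The steps before and after these enzymes were examined with fixed lists. Of 10 genes of cystine supply and glutathione transport, 8 were tested. In erastin-R cells 4 rose and the other 4 did not pass the threshold (-0.12 to 0.06), and in RSL3-R cells 4 rose and 2 fell, with median log2 fold changes of 0.36 and 0.49. Over all genes tested, to which the lists below compare as well, 27.1% rose and 26.8% fell in erastin-R cells and 23.8% rose and 24.9% fell in RSL3-R cells, with medians of -0.00 and 0.01. SLC7A11, the transport subunit of the exchanger that erastin blocks, was at 30.1, 30.2 and 31.3 CPM in vehicle, 213, 213 and 195 CPM in erastin-R and 178, 178 and 172 CPM in RSL3-R libraries. It rose in both resistant groups, by 2.76 ± 0.06 (edgeR adjusted p = 6.24e-12) and 2.53 ± 0.06 (edgeR adjusted p = 9.93e-12) on the log2 scale. Its partner SLC3A2 rose by 0.88 and 0.98, the glutamine carrier SLC1A5 by 1.16 and 1.28, and the neutral amino acid carrier SLC1A4 by 0.66 and 2.33. In RSL3-R cells the exporter ABCC4 fell by 0.26 and the mitochondrial carrier SLC25A40 by 0.58 on the log2 scale, and SLC25A39 at -0.18 passed the threshold in 5 of 16 alternative settings, among them without erastin-R replicate 1 (edgeR adjusted p = 0.00574).

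Of 8 glutathione peroxidases 5 were tested, with medians of 0.21 and 0.18. GPX3 and GPX4 rose in erastin-R cells and GPX4 in RSL3-R cells, and the others did not pass the threshold. GPX1 in erastin-R cells (-0.17, edgeR adjusted p = 0.0651) was called lower in 6 of 16 alternative settings. Without erastin-R replicate 1, GPX8 was called lower in erastin-R cells (-0.17) and higher in RSL3-R cells (0.17), and GPX1 lower in RSL3-R cells (-0.17). GPX4, the target of RSL3, was at 192, 193 and 195 CPM in vehicle, 265, 276 and 285 CPM in erastin-R and 242, 250 and 265 CPM in RSL3-R libraries. It rose by 0.51 ± 0.06 (edgeR adjusted p = 4.74e-06) and 0.38 ± 0.06 (edgeR adjusted p = 7.37e-05). Its resistant groups touched at 265 CPM, the level of erastin-R replicate 1 and RSL3-R replicate 3. Between these groups GPX4 did not pass the threshold (-0.13). Without erastin-R replicate 1 it was called lower in RSL3-R than in erastin-R cells (-0.16, edgeR adjusted p = 0.00519). GPX8, at 0.19 in that comparison, was then called higher (0.35, edgeR adjusted p = 1.09e-05). The secreted peroxidase GPX3 rose by 0.66 in erastin-R cells (edgeR adjusted p = 6.27e-05) and was at -0.02 in RSL3-R cells.

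The γ-glutamyl transferases and peptidases that handle glutathione and its fragments were 11 genes, of which 8 were tested. In erastin-R cells 4 rose and 1 fell, and in RSL3-R cells 5 rose and 2 fell, with medians of 0.23 and 0.70, against 27.1% and 26.8% and then 23.8% and 24.9% of all genes. GGT1, the surface transferase that opens extracellular glutathione, rose by 1.03 ± 0.17 (edgeR adjusted p = 1.42e-04) and 1.17 ± 0.17 (edgeR adjusted p = 5.38e-05). It has close copies in the genome, and its count is uncertain to the extent that their reads were not separated. GGT5, at a mean of 114 CPM in vehicle, did not pass the threshold in erastin-R (-0.11) or RSL3-R cells (-0.02). GGT7 rose by 0.73 and 1.14, and the aminopeptidase ANPEP by 2.67 and 1.45 from only 2 to 4 counts per vehicle library. The RSL3-R call of ANPEP was marginal (edgeR adjusted p = 0.0348) and held in 6 of 14 alternative settings that gave it an adjusted p, and the number of genes that rose there was 3 to 5 over the settings. DPEP1, a dipeptidase that cuts cysteinylglycine, fell by 2.34 on the log2 scale in RSL3-R cells, from 22 to 28 counts to 2 to 9, and GGACT, which opens γ-glutamylamines, rose by 1.19 there. The peptidase LAP3, at a mean of 61 CPM in vehicle, fell in both resistant groups. Its log2 fold changes were -0.38 (edgeR adjusted p = 3.43e-04) and -0.88 (edgeR adjusted p = 2.01e-07).

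All 10 other glutaredoxins and glutathione thioester enzymes were tested. In erastin-R cells 5 rose and 2 fell, and in RSL3-R cells 2 rose and 3 fell, with medians of 0.28 and -0.00. The RSL3-R counts are near the shares over all genes, 23.8% and 24.9%. Without erastin-R replicate 1, ADH5 in erastin-R (0.15) and HAGHL in RSL3-R cells (0.32) passed the threshold as well. The mitochondrial glutaredoxin GLRX2 fell by 0.76 and 0.41 on the log2 scale and GLRX5, which acts in iron-sulfur cluster assembly, by 0.26 and 0.66, unlike cytosolic GLRX. TXNDC12, a thioredoxin-like protein of the endoplasmic reticulum, rose by 0.75 and 0.94, and HAGHL, a relative of the glyoxalase that follows GLO1, rose by 1.24 in erastin-R cells.

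NRF2 and ATF4 targets outside the glutathione pathway were listed to place GCLC, GCLM and CHAC1 beside them. These lists were written with results of these libraries known and are no independent evidence of direction. Of 15 NRF2 targets 14 were tested, of which 13 rose in erastin-R cells, with a median of 1.02, and PGD did not pass the threshold (0.11). In RSL3-R cells 7 rose and 1 fell, with a median of 0.17, and 4 fell (TXN, PGD, TALDO1 and SRXN1) when erastin-R replicate 1 was left out of the model. NQO1, a quinone reductase, was at 89.8, 87.5 and 90.1 CPM in vehicle, 209, 198 and 208 CPM in erastin-R and 90, 85.6 and 90.6 CPM in RSL3-R libraries, so that vehicle and RSL3-R overlapped. The ferritin chains FTH1 and FTL rose by 2.13 and 1.52 in erastin-R and by 0.73 and 0.32 in RSL3-R cells, and the heme oxygenase HMOX1 by 1.53 and 0.49. Ferritin genes have many near-identical pseudogenes, which makes their counts uncertain. AKR1C1 and ME1 rose by 0.76 and 0.55 in RSL3-R cells. Directly compared, 12 of the 14 were lower in RSL3-R than in erastin-R cells, where 26.9% of all genes tested were lower and 22.3% higher. ME1 and AKR1C1 did not pass the threshold (-0.05 and -0.13). The count without erastin-R replicate 1 was again 12.

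Most of the ATF4 targets rose in both groups. In erastin-R cells 14 of 15 rose and ATF5 fell (log2 fold change -0.69, edgeR adjusted p = 4.31e-04). In RSL3-R cells 14 rose, among them ATF5 (0.36), and DDIT4 did not pass the threshold (-0.10). The medians were 1.41 and 2.15. ASNS, the asparagine synthetase, rose by 3.81 and 3.80 from 28 to 35 counts per vehicle library, CTH, which makes cysteine from cystathionine, by 2.64 and 2.90, and the stress protein NUPR1 by 1.41 and 3.59. CEBPB, whose product pairs with ATF4, rose by 1.80 and 0.91, more in the former. Between the resistant groups RSL3-R cells had 10 of the 15 at a higher and 2 at a lower level, also without erastin-R replicate 1. Over all genes tested, 22.3% were higher and 26.9% lower in that comparison. The lower ATF4 targets were CEBPB (-0.89) and DDIT4 (-0.77). ATF3 (0.01), ASNS (-0.01) and CTH (0.26) did not pass the threshold between the resistant groups. TRIB3, a pseudokinase, was at 32.6, 32.9 and 28.3 CPM in vehicle, 87.6, 116 and 113 CPM in erastin-R and 220, 221 and 229 CPM in RSL3-R libraries, the same order of groups as CHAC1. TRIB3 is named because its pattern was the closest to that of CHAC1, so that the shared order follows from this choice.

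**Figure D4:**
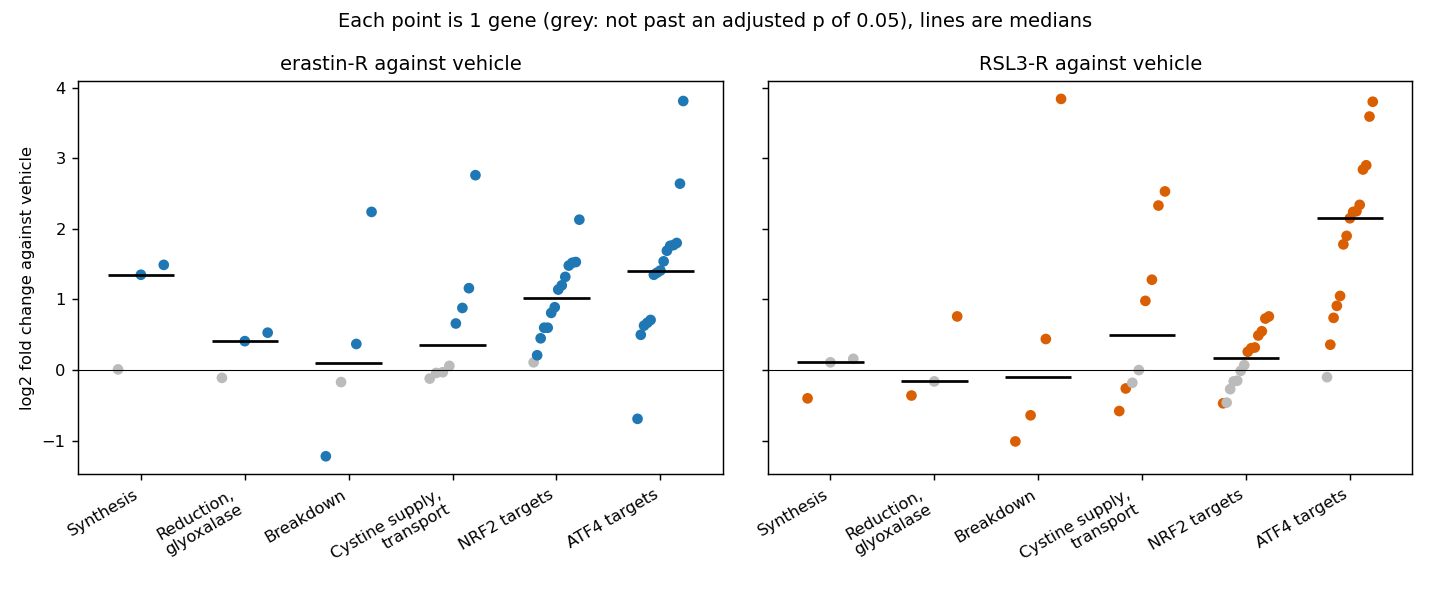
Each point is the log2 fold change of 1 gene against vehicle in erastin-R (left) and RSL3-R cells (right) for the synthesis, reduction and glyoxalase, breakdown, cystine supply and transport, NRF2 target and ATF4 target lists, grey where edgeR's adjusted p was 0.05 or more, with the list's median as a line. The NRF2 target median lies at 1.02 on the left and 0.17 on the right, and the ATF4 target median at 1.41 and 2.15.

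The transcripts of the regulators themselves were also measured. NFE2L2, which encodes NRF2, was at 100, 119 and 125 CPM in vehicle, 159, 106 and 123 CPM in erastin-R and 157, 162 and 178 CPM in RSL3-R libraries. It rose in RSL3-R cells by 0.53 ± 0.12 (edgeR adjusted p = 0.00247) and was 0.17 ± 0.12 in erastin-R cells (edgeR adjusted p = 0.239), where replicate 1 was the highest library and the value without it was -0.00. KEAP1, which marks NRF2 for degradation, fell by 0.40 on the log2 scale in RSL3-R cells (edgeR adjusted p = 0.00632) and was at -0.05 in erastin-R cells, where replicate 1 was the lowest library (66.3 CPM, against 92.7 and 87.5 CPM) and the value without it was 0.09, again not past the threshold. ATF4 rose by 0.30 ± 0.05 (edgeR adjusted p = 3.40e-04) and 0.68 ± 0.05 (edgeR adjusted p = 2.19e-07). The NFE2L2 libraries of the resistant groups overlapped (159 CPM in erastin-R replicate 1 and 157 CPM in RSL3-R replicate 1). NRF2 protein was not measured in these files, and its part in the levels of GCLC and GCLM was not tested.

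Over the 9 libraries, the genes tested whose log2 CPM followed CHAC1 most closely were TRIB3 (Pearson r = 0.9984), GPT2 (r = 0.9975) and CYTH3 (r = 0.9968). Those closest to GCLM were GBF1 (r = 0.9913), RNF10 (r = 0.9909) and HOMER2 (r = 0.9909). The 9 libraries form 3 groups and share a line, so that these values mainly give the order and spacing of the group means and describe likeness of pattern only.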

How the data were processed

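The authors extracted total RNA with Trizol, selected polyadenylated RNA and sequenced 9 libraries. Per the submitters' processing notes, HISAT2 2.0.5 aligned the reads and featureCounts 1.5.0-p3 counted them, and whether strand was used is not given in the sources used here. The authors deposited, for each library, raw counts per gene without normalization and FPKM values made from them (called RPKM in the methods). Gene identifiers, coordinates and strands of all 58735 genes were identical to GENCODE release 29 (GRCh38). Groups were taken from the treatment labels.

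The deposited counts were compared with the quasi-likelihood test of edgeR 4.0.16 in R 4.3.3, after TMM scaling and the default filter on low counts, in 1 model of all 9 libraries without covariates. Benjamini-Hochberg adjustment covered all 16188 genes tested, and an adjusted p below 0.05 was a call. Calls with a log2 fold change of 1 or more in size were counted beside these. Intervals are 95% intervals of the log2 fold change. The common coefficient of variation was 8.56% at 15405102 to 17273464 counts per library. The scripts were tested on simulated data. FPKM served for levels between genes.

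The 10 genes, the lists and the tests were chosen with earlier results of these data known. Genes named are the 10 members, the 3 genes of each list with the largest absolute log2 fold change among those called against vehicle, SLC7A11, GPX4, NFE2L2, KEAP1 and ATF4, and the 3 nearest patterns of CHAC1 and GCLM. NQO1, ABCC4, SLC25A39, SLC25A40, LAP3, GATA3, FOXA1, ATF5 and the list genes given as not called or as changed calls were added after their values were seen. Alternatives were DESeq2 1.42.0, no filter, a mean FPKM of at least 1, upper-quartile scaling, quantile normalization with limma 3.58.1, only the groups compared, a replicate block, each library left out, and, for synthesis against breakdown, the median, CHAC1 left out and log2(FPKM + 0.1). Counts and values of list genes under these settings were added after seeing the data. Python 3.11.15 and matplotlib 3.10.9 drew the figures.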

Additional observations from a re-analysis of the deposited data

Results flagged for a closer look

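Of the 10 genes, 7 differed between RSL3-R and erastin-R cells in edgeR's direct test of the difference, and each is listed for that reason with its log2 difference (RSL3-R minus erastin-R). GCLM was at -1.75, GCLC at -1.34, GSR at -0.57, GGCT at -0.47 and GLO1 at -0.25, whereas CHAC1 was at 1.60 and GLRX at 0.23. For GCLM, erastin-R cells lay above vehicle (log2 fold change 1.35) and RSL3-R cells below it (-0.40). CHAC1 and GLRX rose against vehicle in both groups and more in RSL3-R cells. Genes lower in RSL3-R than in erastin-R cells made up 26.9% of all genes tested and genes higher 22.3%. The call of GLO1 was lost with upper-quartile scaling (-0.15, edgeR adjusted p = 0.0712), and the other 6 calls were kept under all 16 alternative settings.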

How the results depend on the processing

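Over 16 alternative settings for each log2 fold change of the 10 genes, 445 values kept their direction and side of the threshold, 14 newly passed it (GSS 7, GCLC 3, GSR 2 and GLO1 2), 16 no longer passed it (13 of them OPLAH in erastin-R cells) and 5 changed sign, none of which passed it. Sign changes were GSS in erastin-R cells (-0.00 with a mean FPKM of at least 1, -0.04 with upper-quartile scaling, -0.02 with quantile normalization, -0.01 to 0.04 with each library left out) and OPLAH between the resistant groups (-0.11 to 0.19 with each library left out). Lower genes in erastin-R cells were 2 with upper-quartile scaling and 1 to 2 with each library left out, and higher genes in RSL3-R cells were 5 with quantile normalization or only the groups compared. Requiring a log2 fold change of 1 or more in size left 2162, 1635 and 1674 of all genes in the comparisons in the order of the report, and 3 higher of the 10 in erastin-R, 1 higher and 1 lower in RSL3-R, and 1 higher and 2 lower between them. Synthesis minus breakdown was 1.25 (erastin-R) and 0.21 (RSL3-R) with medians, and 1.29, 0.36 and -0.93 without CHAC1. Medians and the omission of CHAC1 each reversed the sign of the RSL3-R value against vehicle. The causes were not tested. With the replicate block 8438, 7508 and 7614 genes were called, and of the calls on the 10 genes OPLAH in erastin-R cells was lost (adjusted p = 0.0509). Equal replicate numbers did not mark pairs, since the deviations from group means correlated by -0.0806 to 0.0509 over 9 pairs. Depth limits CHAC2 most, at 53 to 88 counts per resistant library.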
